A study of Arabidopsis thaliana with 9 samples.

Results

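The comparison of gir1-1 sepals with wild-type sepals of Arabidopsis thaliana rests on the raw counts of 6 of the 9 libraries of the series, 3 of gir1-1 and 3 of wild type (WT, the accession Col-0). The other 3 libraries, of the mutant atml1-3, entered the filter on low counts, the scaling and the shared estimate of the spread between replicates. Their levels are not compared here. Each library was made from 200 sepals of 50 flower buds, taken at floral stage 12, just before the bud opens, from plants kept at 23 °C in continuous light. Both genotypes carry the same batch label, and the labels give no difference between them other than genotype. The labels do not describe the lesion of gir1-1, and they do not say whether the 3 libraries of a genotype came from separate plants, so every p-value measures the spread between these samples only. Levels are CPM, the count of a gene relative to the total count of its library times the library's TMM scaling factor.

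GIR1 (GL2-INTERACTING REPRESSOR 1) encodes a small adaptor protein that links homeodomain factors of the HD-ZIP IV class, which govern epidermal cell identity, to the TOPLESS co-repressors. The sepal is the outermost floral organ, green and photosynthetic, and its epidermis holds giant cells among smaller ones. Like other organs of the Brassicaceae it makes glucosinolates, sulfur-rich defence compounds built from methionine (aliphatic) or tryptophan (indolic) and cleaved by myrosinases when tissue is damaged.

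The 6 libraries held between 16607356 and 20148807 counts, and 19174 of the 38299 genes in the table had enough counts to be tested. The correlation of log2 CPM between libraries was 0.944 to 0.957 within WT, 0.938 to 0.957 within gir1-1 and 0.928 to 0.963 between them. On the first principal component of the 6 libraries, with 43.9% of the variance, gir1-1 replicate 3 stood at 45.1 and WT replicate 3 at -28.8, with the other libraries between -21 and 12, so that component does not separate the genotypes. The second component, with 23.6%, does, with WT between -24.5 and -10.8 and gir1-1 between 8.7 and 29.6. Results that lean on either replicate 3 are therefore also given without it. GIR1 itself (AT5G06270, chr5:1912013-1913728, plus strand) was at 1.49, 2.19 and 4.29 CPM in WT and 0.679, 0.610 and 0.344 in gir1-1, which is lower in all 3 libraries. The quasi-likelihood test of edgeR gave it a log2 fold change of -2.28 (SE 0.56, adjusted p = 0.385).

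By that test, with p-values adjusted by Benjamini and Hochberg's method over all genes tested, 3 genes (0.0156%) differed between gir1-1 and WT at an adjusted p-value under 0.05. MLP43 and AT5G17700 rose (2 genes, 0.0104%) and MAF5 fell (1 gene, 0.00522%). At an unadjusted p-value under 0.05 there were 644 genes higher in gir1-1 (3.36%) and 798 lower (4.16%). These 2 shares are the background against which each gene group below is read, and a gene counted among them is not by itself a called gene. Among the same 19174 genes, 370 were higher and 574 lower at this threshold without gir1-1 replicate 3. Without WT replicate 3 the numbers were 734 and 733. Counts of groups under these omissions are read against these numbers. In the authors' deposited table, 63 of the genes tested here (0.329%) were higher and 47 (0.245%) lower at an adjusted p-value under 0.05. All 3 gir1-1 libraries lay above all 3 WT libraries for 991 genes (5.17%) and below them for 1015 genes (5.29%), which makes 2006 genes (10.5%) without overlap. The median log2 fold change over all genes tested was 0.005, so medians of groups are read against a value close to 0.

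MLP43 (AT1G70890, chr1:26725521-26726652, minus strand) encodes a major latex protein-like protein, of the class that shares the Bet v I ligand-binding fold. It was at 0.286, 0.789 and 0.881 CPM in WT and 56.0, 34.7 and 38.0 in gir1-1. The WT libraries lay close to the limit of detection and every gir1-1 library lay far above them. By edgeR it changed by 6.03 on the log2 scale (SE 0.57, adjusted p = 0.00984). The call was lost without WT replicate 1 (adjusted p = 0.0791 by edgeR) and without gir1-1 replicate 1 (adjusted p = 0.0876 by edgeR).

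AT5G17700 (chr5:5830570-5834000, minus strand) encodes a MATE transporter, of a family that exports organic compounds from the cell or into the vacuole, and the table names it DETOXIFICATION 25. It was at 1.72, 4.01 and 2.35 CPM in WT and 97.2, 71.9 and 63.7 in gir1-1, again with no overlap. By edgeR it changed by 4.85 on the log2 scale (SE 0.50, adjusted p = 0.0147). The adjusted p-value was 0.112 by edgeR without WT replicate 1, 0.0641 without WT replicate 3, 0.0900 without gir1-1 replicate 1 and 0.0535 without gir1-1 replicate 2.

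MAF5 (AT5G65080, chr5:25997504-26002619, plus strand) is a MADS-box gene of the FLOWERING LOCUS C clade, whose members are best known as repressors of flowering. It was at 13.4, 17.7 and 21.6 CPM in WT and 2.55, 2.87 and 2.60 in gir1-1, where the 3 libraries were nearly equal. By edgeR it changed by -2.71 on the log2 scale (SE 0.22, adjusted p = 0.00484), and the adjusted p became 0.0759 without gir1-1 replicate 1.

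The 250 bases upstream of the annotated start of these 3 genes are shown because they are the called genes of the comparison. They were read from the RefSeq assembly TAIR10.1, 5′ to 3′ on the strand of the gene. A search on both strands looked for TAAATGNA, named the L1-box word here, and for the G-box CACGTG. The G-box is a site of bHLH and bZIP factors. The L1-box word covers the L1 box of HD-ZIP IV factors, but N is any base, so not every match is that box. None of the 3 holds either word in this window, so no letter is in capitals.
MLP43 (chr1:26726653-26726902, minus strand): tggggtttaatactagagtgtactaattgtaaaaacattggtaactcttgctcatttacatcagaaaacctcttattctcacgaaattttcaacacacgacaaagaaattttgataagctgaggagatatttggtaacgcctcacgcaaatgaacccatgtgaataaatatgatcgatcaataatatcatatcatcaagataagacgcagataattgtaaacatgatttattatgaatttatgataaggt
AT5G17700 (chr5:5834001-5834250, minus strand): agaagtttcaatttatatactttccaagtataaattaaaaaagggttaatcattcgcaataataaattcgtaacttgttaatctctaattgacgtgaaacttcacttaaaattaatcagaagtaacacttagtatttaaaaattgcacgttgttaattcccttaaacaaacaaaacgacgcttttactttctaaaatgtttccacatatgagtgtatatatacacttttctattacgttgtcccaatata
MAF5 (chr5:25997254-25997503, plus strand): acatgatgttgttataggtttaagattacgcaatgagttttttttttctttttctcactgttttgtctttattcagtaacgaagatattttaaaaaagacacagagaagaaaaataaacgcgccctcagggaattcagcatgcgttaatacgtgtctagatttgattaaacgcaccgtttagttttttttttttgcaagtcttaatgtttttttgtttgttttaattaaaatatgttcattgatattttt

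3 further promoters are shown in the same way because they do hold one of the words. GALS3 is among the 10 genes with the smallest p-values on the lower side, while MSRB5 and AT5G23820 were called higher in the authors' deposited table and were picked after their values were seen. Capitals mark the L1-box word in GALS3, read on the other strand with A at N, which is not taken here as the L1 box itself. They also mark the G-box in MSRB5 and AT5G23820.
GALS3 (chr4:10896329-10896578, plus strand): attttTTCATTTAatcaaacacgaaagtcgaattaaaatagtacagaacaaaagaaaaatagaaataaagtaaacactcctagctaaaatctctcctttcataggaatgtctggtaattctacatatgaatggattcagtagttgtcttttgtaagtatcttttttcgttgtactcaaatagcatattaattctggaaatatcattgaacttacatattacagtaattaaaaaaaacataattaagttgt
MSRB5 (chr4:2445525-2445774, plus strand): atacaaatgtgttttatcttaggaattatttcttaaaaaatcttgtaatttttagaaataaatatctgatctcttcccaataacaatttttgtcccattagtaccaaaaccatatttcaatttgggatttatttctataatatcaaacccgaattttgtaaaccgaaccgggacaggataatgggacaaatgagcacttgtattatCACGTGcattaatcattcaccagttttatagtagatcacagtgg
AT5G23820 (chr5:8030915-8031164, plus strand): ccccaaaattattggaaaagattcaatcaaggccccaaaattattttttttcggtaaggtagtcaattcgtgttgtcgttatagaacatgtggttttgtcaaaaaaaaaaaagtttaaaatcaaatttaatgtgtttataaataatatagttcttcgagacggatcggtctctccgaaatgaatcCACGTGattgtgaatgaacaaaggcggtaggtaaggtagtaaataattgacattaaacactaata

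The L1-box word was present in 10.1% of the 18451 promoters of this length belonging to protein-coding genes tested. It was present in 9.84% of the 610 promoters of genes higher in gir1-1 at an unadjusted p-value under 0.05, and in 12.4% of the 767 promoters of genes lower. The G-box was present in 7.61% of all these promoters, in 13.4% of those of higher genes (82 of 610) and in 6.78% of those of lower genes (52 of 767). Of the aliphatic glucosinolate genes described next, 2 of 25 promoters held the L1-box word and 2 held a G-box. The shares were not tested against each other, and a word in a window is not a bound site.

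**Figure D1:**
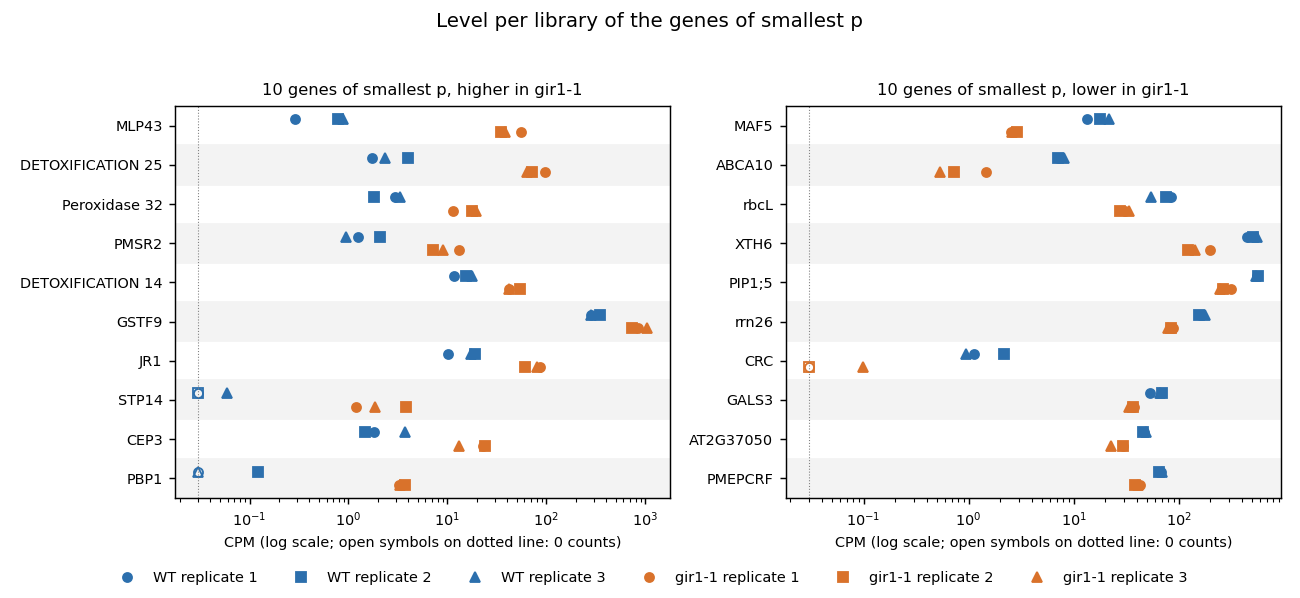
CPM per library, on a log axis, of the 10 genes with the smallest p-values on the higher side and the 10 on the lower side, chosen among genes whose WT and gir1-1 libraries do not overlap. MLP43 lies between 0.286 and 0.881 CPM in WT and between 34.7 and 56.0 in gir1-1, the widest gap shown among genes with counts in every library, while the lower genes other than ABCA10, MAF5 and CRC differ by smaller steps.

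Behind the called genes, the genes with the smallest p-values on the higher side encoded enzymes, transporters and lectins. None of the genes in this paragraph reached an adjusted p-value under 0.05 by edgeR. The peroxidase gene AT3G32980 (peroxidase 32) was at 2.98, 1.82 and 3.29 CPM in WT and 11.3, 17.9 and 19.6 in gir1-1, a log2 fold change of 2.59 (SE 0.34, adjusted p = 0.0879 by edgeR). PMSR2, a methionine sulfoxide reductase that repairs oxidised methionine, was at 1.26, 2.06 and 0.940 CPM in WT and 13.0, 7.20 and 8.99 in gir1-1, a log2 fold change of 2.77 (SE 0.38, adjusted p = 0.0920 by edgeR). A second enzyme of this kind, MSRB5, was at 3.49, 6.32 and 2.88 CPM in WT and 25.8, 15.1 and 11.8 in gir1-1. In neither gene did the genotypes overlap. A second MATE transporter gene, AT1G71140 (DETOXIFICATION 14), was at 11.7, 15.3 and 17.8 CPM in WT and 42.0, 53.5 and 41.8 in gir1-1, a log2 fold change of 1.61 (SE 0.24, adjusted p = 0.0986 by edgeR). GSTF9, a glutathione transferase, was at 285, 352 and 282 CPM in WT and 837, 726 and 1044 in gir1-1, a log2 fold change of 1.5 (SE 0.23, adjusted p = 0.0986 by edgeR). It is the most highly counted of the top genes on this side, and its lowest gir1-1 library was above its highest WT library by more than either genotype's own spread.

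2 jacalin-like lectin genes were also among these 10. JR1, a lectin gene known to respond to jasmonate, was at 10.2, 18.8 and 17.3 CPM in WT and 85.7, 60.9 and 80.2 in gir1-1, a log2 fold change of 2.29 (SE 0.36, adjusted p = 0.130 by edgeR). Other genes overlap 16.0% of its span, so part of its reads could be theirs. AT3G16420 (PBP1), whose protein binds the beta-glucosidase PYK10, had 2 counts in the WT libraries together and 186 in gir1-1, a ratio of 87.1 (95% interval 23.8 to 724, counting error only). These lectin genes are neighbours, 14250 bases apart. The 12 tested genes with a jacalin-like lectin domain, grouped after their values were seen, had a median log2 fold change of -0.14. Of the 12, 3 were higher at an unadjusted p-value under 0.05 and none lower. The log2 fold change was below 0 in the other 9, so the rise was not shared by most of the group. STP14, a sugar transporter gene, had 1 count in WT and 122 in gir1-1, a ratio of 114 (95% interval 20.1 to 4548, counting error only). CEP3, a cysteine protease with an endoplasmic reticulum retention tail, was at 1.83, 1.46 and 3.70 CPM in WT and 22.8, 23.7 and 13.0 in gir1-1, a log2 fold change of 3.08 (SE 0.50, adjusted p = 0.134 by edgeR). A gene listed at 0 in all 3 WT libraries and chosen for that, the bHLH gene AT1G62975, was at 3.62, 3.60 and 1.96 CPM in gir1-1. That is at least 16.7-fold higher, taking 3 counts in a library as the limit of detection.

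On the lower side, the genes with the smallest p-values behind MAF5 included genes of the cell wall, water transport, the organelles and the nectary. ABCA10, an ABC transporter gene of the A family, was at 7.04, 7.17 and 8.16 CPM in WT and 1.47, 0.732 and 0.540 in gir1-1, a log2 fold change of -3.02 (SE 0.43, adjusted p = 0.0920 by edgeR). XTH6, a xyloglucan endotransglucosylase that cuts and rejoins wall xyloglucan, was at 447, 512 and 556 CPM in WT and 198, 124 and 143 in gir1-1, a log2 fold change of -1.70 (SE 0.25, adjusted p = 0.0920 by edgeR). PIP1;5, a plasma membrane aquaporin, was at 561, 572 and 552 CPM in WT and 318, 265 and 247 in gir1-1, a log2 fold change of -1.02 (SE 0.15, adjusted p = 0.0920 by edgeR). Every gir1-1 library of these 3 genes lay below every WT library, and the WT libraries lay close together. GALS3, which adds galactose to pectic galactan, was at 53.6, 69.8 and 66.4 CPM in WT and 37.4, 36.9 and 33.8 in gir1-1. The pectinesterase gene PMEPCRF was at 68.4, 65.2 and 69.7 CPM in WT and 43.0, 38.7 and 40.7 in gir1-1, with log2 fold changes of -0.81 for GALS3 and -0.73 for PMEPCRF. The receptor-like kinase gene AT2G37050 was at 46.8, 45.9 and 48.9 CPM in WT and 29.5, 29.5 and 22.7 in gir1-1, a log2 fold change of -0.79. Though small, these 3 differences were each wider than the range within either genotype.

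The synthesis of aliphatic glucosinolates was, of the lists examined, the one with the largest share of its members higher in gir1-1. Of the 29 listed genes 26 were tested, and 22 of them (84.6%) were higher in gir1-1 at an unadjusted p-value under 0.05, none lower, with a median log2 fold change of 2.31. The authors' deposited table called 7 members higher and none lower, while by edgeR none had an adjusted p-value under 0.05. The count was 18 without WT replicate 3 and 22 without gir1-1 replicate 3. By step, the 9 tested genes of methionine chain elongation were all among the 22, with a median of 2.80, as were 6 of 7 genes of the core structure, 5 of 8 of side-chain modification and both tested regulators.

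In the first step, BCAT4, which starts chain elongation by removing the amino group of methionine, was at 12.2, 23.6 and 1.94 CPM in WT and 216, 117 and 60.2 in gir1-1, a log2 fold change of 3.38 (SE 0.80, adjusted p = 0.353 by edgeR). BASS5, the plastid importer of the resulting keto acid, was at 1.2, 10.1 and 0.998 CPM in WT and 39.5, 21.7 and 24.5 in gir1-1. IPMI2, a small subunit of the isomerase of the elongation cycle, was at 5.32, 16.5 and 1.12 CPM in WT and 96.2, 38.7 and 33.4 in gir1-1. In each of these genes the genotypes did not overlap, WT replicate 2 was the highest WT library and WT replicate 3 the lowest. The log2 fold changes were 2.80 for BASS5 (SE 0.74) and 2.87 for IPMI2 (SE 0.78). Without WT replicate 2, the adjusted p-value of BASS5 was 0.00686 by edgeR and that of the isomerase gene IPMI1 was 0.0392 by edgeR, with log2 fold changes of 4.69 and 3.70.

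In the core pathway, CYP79F1, the cytochrome P450 that turns elongated methionine into an aldoxime, was at 2.58, 12.9 and 0.470 CPM in WT and 141, 50.7 and 46.2 in gir1-1. CYP83A1, the next oxidase, was at 26.1, 80.2 and 7.64 CPM in WT and 304, 166 and 128 in gir1-1. GSTU20, a glutathione transferase of the conjugation step, was at 24.6, 39.4 and 20.1 CPM in WT and 226, 71.6 and 85.2 in gir1-1. All 3 genes kept the genotypes apart, and gir1-1 replicate 1 was the highest library in each. Their log2 fold changes were 3.90 (SE 0.88), 2.39 and 2.19 (SE 0.43). The glucosyltransferase gene UGT74C1 was the core member that did not share this pattern, with a log2 fold change of -0.03. Among side-chain genes, AOP2, annotated in Col-0 as a transcribed pseudogene, was at 0.0572, 1.09 and 0.235 CPM in WT and 10.2, 2.99 and 3.34 in gir1-1. FMOGS-OX1, an S-oxygenase gene, was at 3.26, 6.62 and 0 CPM in WT and 31.4, 18.4 and 11.2 in gir1-1.

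The regulators of the pathway differed from each other in how clearly they separated. MYB29 was at 0.229, 0.364 and 0.117 CPM in WT and 6.79, 1.22 and 3.39 in gir1-1, a log2 fold change of 3.97 (SE 0.79, adjusted p = 0.311 by edgeR). MYB28 was at 16.5, 36.3 and 21.4 CPM in WT and 49.0, 35.3 and 34.1 in gir1-1, a log2 fold change of 0.68, with WT replicate 2 above 2 of the gir1-1 libraries.

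**Figure D2:**
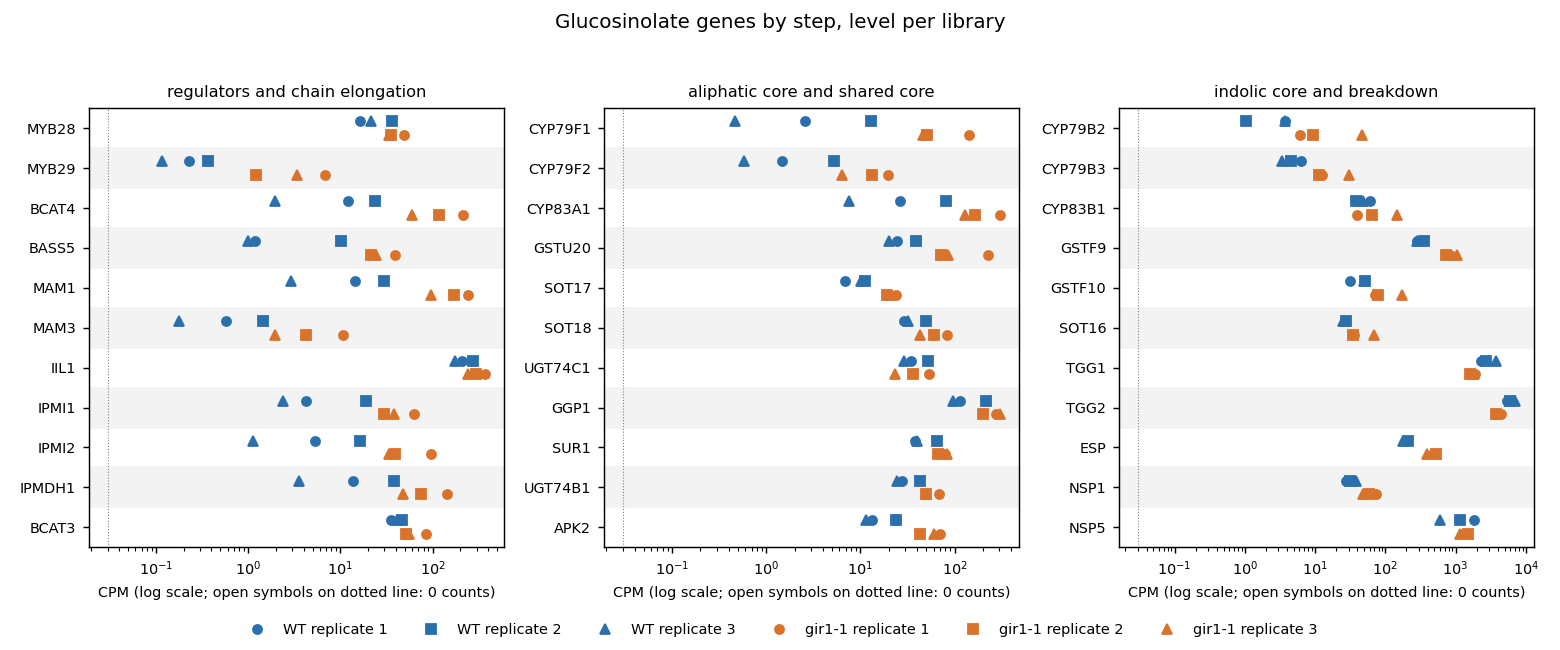
CPM per library, on a log axis, of glucosinolate genes by step, with WT in blue and gir1-1 in orange and one symbol shape per replicate number. Chain elongation genes such as BCAT4 and MAM1 separate by genotype with WT replicate 3 lowest, the indolic genes CYP79B2 and CYP83B1 have gir1-1 replicate 3 as the highest library, and the myrosinase genes TGG1 and TGG2 lie lower in gir1-1.

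Of 10 tested genes of indolic synthesis, 6 (60%) were higher at an unadjusted p-value under 0.05 and none lower, with a median log2 fold change of 1.05. The count was 5 without WT replicate 3 and 4 without gir1-1 replicate 3. CYP79B2, which turns tryptophan into an aldoxime, was at 3.78, 1.03 and 3.70 CPM in WT and 6.11, 9.21 and 46.1 in gir1-1, a log2 fold change of 2.85. CYP79B3, its duplicate, was at 6.35, 4.55 and 3.35 CPM in WT and 12.5, 11.3 and 30.7 in gir1-1, a log2 fold change of 1.94. In both, gir1-1 replicate 3 stood well above the other gir1-1 libraries.

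The 5 core enzymes shared by both branches were all higher at an unadjusted p-value under 0.05, with a median log2 fold change of 0.87, whereas neither of the transporters GTR1 (-0.09) and GTR2 (0.30) was. UGT74B1, the glucosyltransferase that forms the desulfo compound, was at 27.4, 42.5 and 24.6 CPM in WT and 68.0, 49.9 and 50.0 in gir1-1. APK2, a kinase that makes the sulfate donor for the last step, was at 13.4, 23.7 and 11.6 CPM in WT and 70.5, 43.4 and 60.8 in gir1-1, a log2 fold change of 1.84, and its adjusted p-value was 3.36e-05 in the authors' deposited table. For both genes the lowest gir1-1 library was above the highest WT library.

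Sulfur supply lies upstream of the pathway. Of 22 tested genes of sulfate uptake, assimilation and sulfur deficiency, 4 (18.2%) were higher and none lower at an unadjusted p-value under 0.05, with a median log2 fold change of 0.45. The count was 3 without WT replicate 3 and 6 without gir1-1 replicate 3. APR1, a reductase of activated sulfate, was at 8.98, 33.2 and 10.4 CPM in WT and 89.0, 55.3 and 32.5 in gir1-1, so that the genotypes overlapped slightly. Its log2 fold change was 1.75 (SE 0.53), against -0.64 for APR2 and 0.49 for APR3, the other reductases of this family. HMT3, a homocysteine methyltransferase that makes methionine, was at 23.3, 16.8 and 13.4 CPM in WT and 49.9, 39.5 and 36.4 in gir1-1. It is named after its values were seen, at 1.23 on the log2 scale, and the authors' deposited table gives it an adjusted p of 0.00558.

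Among 10 tested genes of glucosinolate breakdown, 2 were higher and 2 lower at an unadjusted p-value under 0.05, and without gir1-1 replicate 3 2 were higher and 4 lower. The myrosinase TGG1 was at 2285, 2703 and 3704 CPM in WT and 1870, 1622 and 1857 in gir1-1, a log2 fold change of -0.70. The myrosinase TGG2 was at 5364, 6016 and 7030 CPM in WT and 4391, 3796 and 3931 in gir1-1, a log2 fold change of -0.60. Both were lower in every gir1-1 library. Of 7 tested genes of specifier proteins and modifiers, which steer the products of hydrolysis, 2 were higher and the median was 0.01. ESP was at 200, 212 and 176 CPM in WT and 485, 529 and 390 in gir1-1, a log2 fold change of 1.26, and its adjusted p-value was 9.63e-07 in the authors' deposited table. NSP1 was at 28.0, 31.5 and 37.9 CPM in WT and 72.9, 59.5 and 48.6 in gir1-1, a log2 fold change of 0.89. Of the words of 50 bases in these genes, 10.3% in ESP and 22.3% in NSP1 occur elsewhere in the genome, so their counts may include reads of near copies.

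Gene families were then formed from the words of the gene descriptions, without regard to pathway. Of 80 families, 76 had at least 8 genes tested. A family was taken to stand above the background where at least 4 members, and at least 2 times the background share, had an unadjusted p-value under 0.05 in one direction. By this rule 8 families stood above it on the higher side and 18 on the lower side, 2 of them on both, and 52 on neither. Families overlap in membership, and these counts carry no test.

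**Figure D3:**
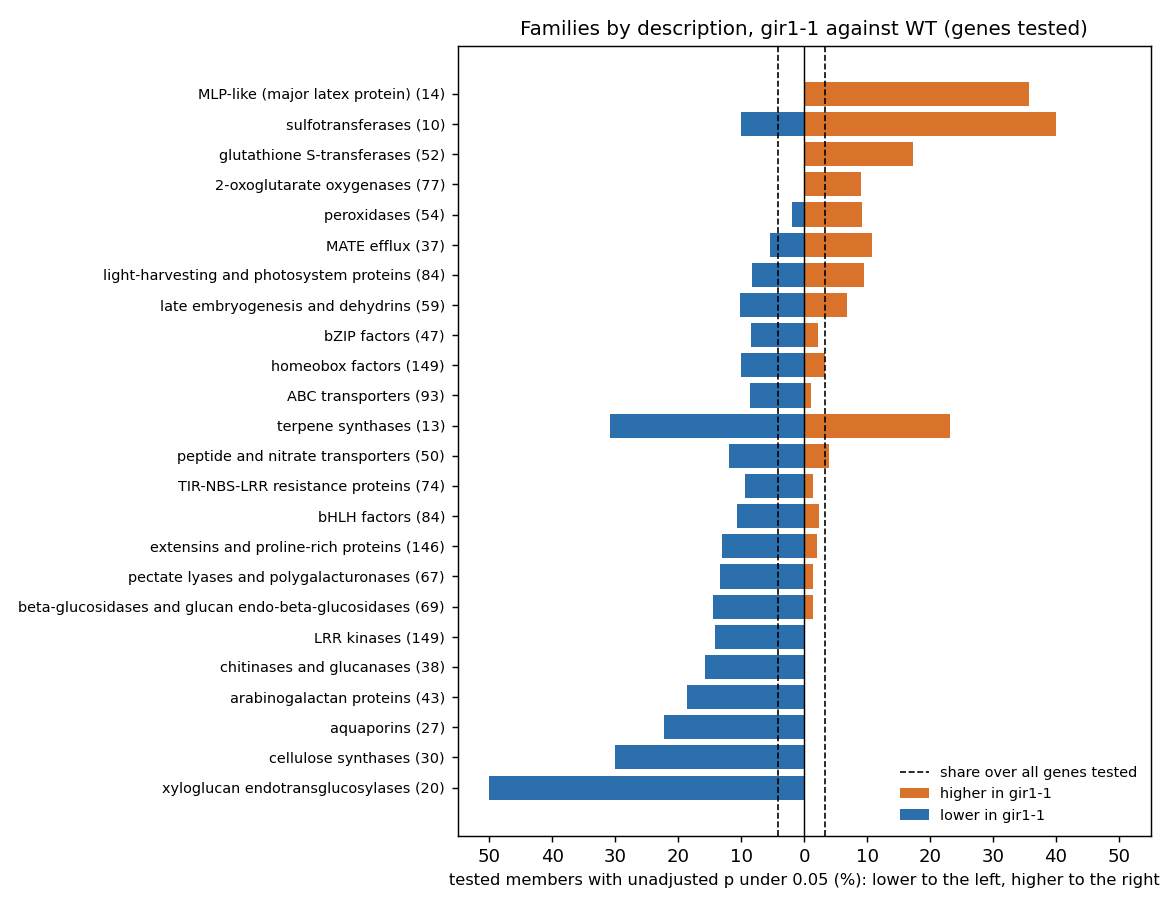
Share of tested members with an unadjusted edgeR p-value under 0.05, higher in gir1-1 to the right and lower to the left, for the families that stood above the background, with the background shares of 3.36% and 4.16% as dashed lines. Wall families lie mostly to the left, with xyloglucan endotransglucosylases at 50.0%, and the sulfotransferases (40.0%) and major latex proteins (35.7%) reach farthest to the right.

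Major latex protein-like genes, the family of MLP43, had 5 of 14 tested members higher (35.7%) and none lower, and the same 5 were called higher in the authors' deposited table. AT4G23670 was at 271, 484 and 504 CPM in WT and 1583, 1507 and 1118 in gir1-1, a log2 fold change of 1.74. AT3G26460 was at 0.114, 0.607 and 0.646 CPM in WT and 10.7, 10.8 and 6.19 in gir1-1, a log2 fold change of 4.33. MLP28 was at 4.64, 9.29 and 5.76 CPM in WT and 21.3, 15.4 and 15.5 in gir1-1, a log2 fold change of 1.41. In all 3 the genotypes did not overlap. The fifth member, AT3G26440, shares 41.7% of its span with other genes, and the table describes it also as a transmembrane protein. It lacks the Bet v I domain, by which 4 of 13 genes were higher (30.8%), a grouping chosen after values were seen. MLP28 lies 13934 bases from MLP43 and AT3G26440 lies 183 bases from AT3G26460, so the 5 genes fall at 3 places in the genome. Without WT replicate 3 the count was 6, and without gir1-1 replicate 3 it was 4, with 1 lower.

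Glutathione transferases, which conjugate reactive compounds to glutathione, had 9 of 52 members higher (17.3%) and none lower, with a median of 0.34. In 8 of the 9 the highest library was gir1-1 replicate 3, and without it 4 were higher and 1 lower, while without WT replicate 3 there were 6 higher and 3 lower. GSTU19 was at 546, 455 and 381 CPM in WT and 695, 811 and 886 in gir1-1, a log2 fold change of 0.79 (SE 0.22), with no overlap. GSTF6 was at 12.6, 7.47 and 0.881 CPM in WT and 6, 8.54 and 146 in gir1-1, which is high in 1 library alone. Of the 9 genes, 3 were also in the glucosinolate lists.

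Further families with members on the higher side varied in their share. Sulfotransferases had 4 of 10 higher (40.0%), of which 3 were the glucosinolate enzymes SOT16, SOT17 and SOT18, and 1 without WT replicate 3. 2-Oxoglutarate oxygenases had 7 of 77 (9.09%), with AT1G14120 at 0, 0.0607 and 0 CPM in WT and 5.71, 1.46 and 2.21 in gir1-1. Peroxidases had 5 of 54 (9.26%), among them PRX52 at 1.83, 0.243 and 0.352 CPM in WT and 1.24, 1.34 and 62.5 in gir1-1, where again a single library was high. MATE transporters had 4 of 37 (10.8%) higher and 2 lower. Methionine sulfoxide reductases had 3 of 10 (30.0%), under the minimum of 4 set by the rule. Late embryogenesis abundant and dehydrin genes had 4 of 59 higher (6.78%) and 6 lower (10.2%), and terpene synthases had 4 of 13 lower (30.8%) and 3 higher (23.1%). Without gir1-1 replicate 3 the higher counts were 4 for 2-oxoglutarate oxygenases, 3 for peroxidases, 3 for MATE transporters, 2 for sulfotransferases and 4 for late embryogenesis genes, and terpene synthases had 1 higher and 2 lower. Without WT replicate 3 terpene synthases had 1 higher and 3 lower.

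Photosynthesis genes stood above the background in both directions, and 5 of the 7 on the lower side were encoded by the plastid. Of 84 light-harvesting and photosystem genes, 8 (9.52%) were higher and 7 (8.33%) lower at an unadjusted p-value under 0.05. The higher ones were nuclear genes of antenna and photosystem proteins. CAB2, an antenna protein of photosystem II, was at 989, 779 and 1038 CPM in WT and 1557, 1657 and 2008 in gir1-1, a log2 fold change of 0.90, and 20.5% of its words occur elsewhere in the genome. LHB1B1, another antenna gene, was at 15.5, 16.4 and 46.2 CPM in WT and 45.6, 91.8 and 295 in gir1-1, with WT replicate 3 just above the lowest gir1-1 library. In all 8 higher genes gir1-1 replicate 3 was the highest library, and without it 2 were higher.

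The 5 plastid-encoded genes were psaA, psaB, psbA, psbC and psbD. The reaction-centre gene psaA of photosystem I was at 21.9, 20.9 and 18.6 CPM in WT and 11, 12.9 and 12.6 in gir1-1, a log2 fold change of -0.75 (SE 0.16). Its counterpart psbA of photosystem II was at 179, 133 and 102 CPM in WT and 82.2, 73.9 and 75.7 in gir1-1, a log2 fold change of -0.84 (SE 0.24). The plastid gene rbcL, for the large subunit of Rubisco, was at 84.5, 76.0 and 55.3 CPM in WT and 30.7, 27.9 and 33.9 in gir1-1, a log2 fold change of -1.22 (SE 0.18), and was among the 10 genes with the smallest p-values. In each of these genes all gir1-1 libraries lay below all WT libraries. Without WT replicate 3 the adjusted p-value of rbcL was 0.0330 by edgeR. Of all 64 plastid-encoded genes tested, 12 (18.8%) were lower and 1 higher, and their median was -0.54 on the log2 scale. Of them, 12 were lower without WT replicate 3 and 13 without gir1-1 replicate 3. Of 28 mitochondrial genes 3 were lower and none higher, with a median of -0.43. For all 3, WT replicate 3 was the highest library, and 2 were lower without it and 2 without gir1-1 replicate 3. The 3 include the ribosomal RNA gene rrn26 at 159, 157 and 177 CPM in WT and 89.0, 84.2 and 79.3 in gir1-1.

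Several of the families on the lower side act in the synthesis and loosening of the cell wall. Xyloglucan endotransglucosylases had 10 of 20 members lower at an unadjusted p-value under 0.05 (50.0%) and none higher, with a median log2 fold change of -0.78. XTH4 was at 197, 183 and 538 CPM in WT and 103, 33.4 and 63.8 in gir1-1, a log2 fold change of -2.19 (SE 0.56). TCH4, a member known to respond to touch, was at 485, 144 and 730 CPM in WT and 174, 46.4 and 138 in gir1-1, so that the genotypes overlapped. XTH16 was at 22.7, 16.0 and 125 CPM in WT and 13.4, 8.23 and 6.83 in gir1-1, a log2 fold change of -2.53 (SE 0.87). WT replicate 3 was the highest library for all 10 genes, and without it 4 were lower, with a median of -0.59. Without gir1-1 replicate 3 there were 5.

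Cellulose synthases and their partners had 9 of 30 members lower (30.0%) and none higher, 4 without WT replicate 3. CESA1, a catalytic subunit of the primary-wall complex, was at 356, 331 and 411 CPM in WT and 304, 219 and 236 in gir1-1, a log2 fold change of -0.53 (SE 0.16). CESA5, another primary-wall subunit, was at 126, 165 and 149 CPM in WT and 112, 88.5 and 97.6 in gir1-1, a log2 fold change of -0.56 (SE 0.15). CSLD5, a cellulose synthase-like gene, was at 4.35, 4.31 and 7.52 CPM in WT and 2.04, 2.38 and 1.87 in gir1-1. Its log2 fold change was -1.36 (SE 0.33), and the genotypes did not overlap in these 3 genes.

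Arabinogalactan proteins, glycoproteins of the cell surface, had 8 of 43 members lower (18.6%) and none higher. FLA2 was at 15.2, 20.6 and 94.3 CPM in WT and 12.4, 4.03 and 6.83 in gir1-1, and FLA9 at 31.5, 25.8 and 167 CPM in WT and 12.8, 5.55 and 13.0 in gir1-1. In all 8, WT replicate 3 was the highest library, and without it 4 were lower and 1 higher, and the median moved from -0.46 to -0.06. Pectate lyases and polygalacturonases had 9 of 67 lower (13.4%), 6 without WT replicate 3. PG2 was at 103, 95.8 and 104 CPM in WT and 52.3, 32.9 and 60.1 in gir1-1, a log2 fold change of -1.06, in which WT replicate 3 did not stand out. The table describes PG2 as a beta-like subunit of polygalacturonase. The description group of extensins and proline-rich proteins had 19 of 146 lower (13.0%), 9 without WT replicate 3. Not all are wall proteins by description, since the group also holds proline-rich receptor-like kinases. The 6 lower late embryogenesis genes given above are all among the 19, so these 2 families share members. Chitinases and glucanases had 6 of 38 (15.8%), 2 without WT replicate 3. The description group of beta-glucosidases had 10 of 69 lower (14.5%), 5 without WT replicate 3. All 10 are annotated as glucan endo-beta-glucosidases, however, and some are the same genes as these glucanases.

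**Figure D4:**
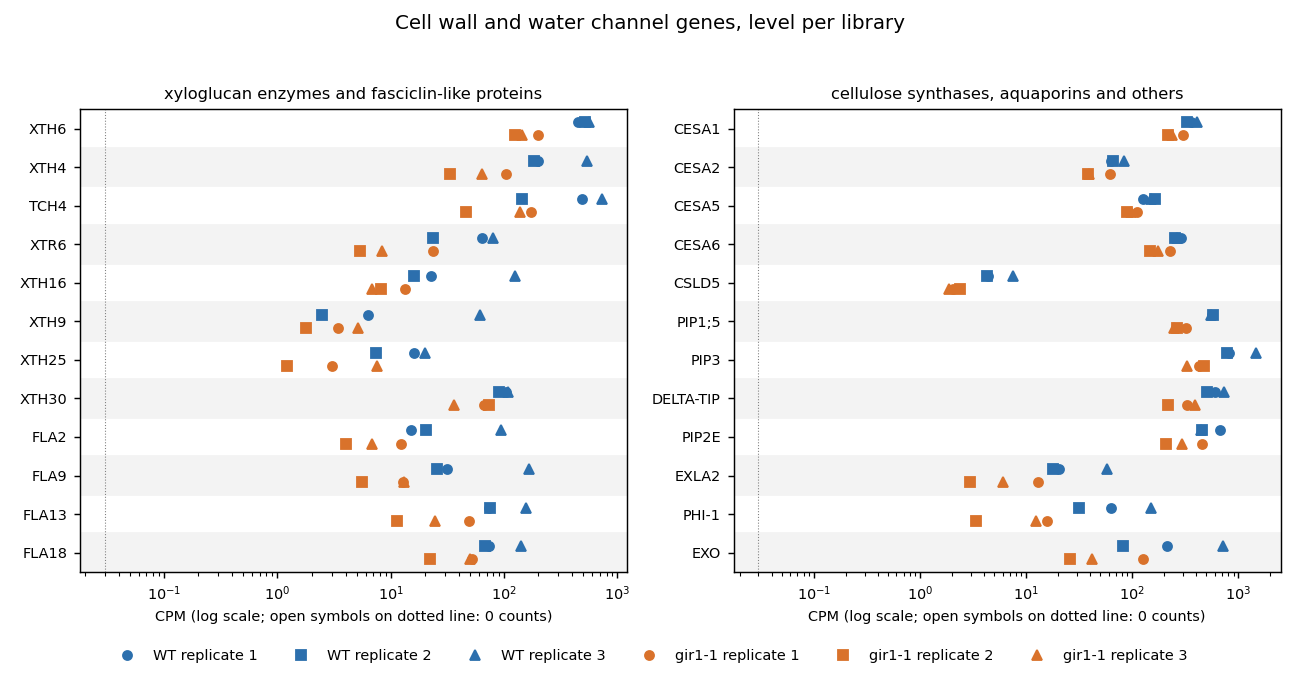
CPM per library, on a log axis, of wall and aquaporin genes that were lower in gir1-1, with one symbol shape per replicate number. WT replicate 3 (blue triangles) is far above the other WT libraries for XTH16 and FLA9, whereas XTH6 and PIP1;5 have 3 WT libraries close together and all above gir1-1.

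Aquaporins, the water channels of the plasma membrane and the vacuole, had 6 of 27 members lower (22.2%) and none higher, 5 without WT replicate 3 and 4 without gir1-1 replicate 3. PIP3 was at 813, 783 and 1455 CPM in WT and 426, 479 and 330 in gir1-1, a log2 fold change of -1.31 (SE 0.30). DELTA-TIP, a vacuolar channel, was at 603, 506 and 737 CPM in WT and 329, 217 and 388 in gir1-1, a log2 fold change of -0.98 (SE 0.26). Both, like PIP1;5, had all gir1-1 libraries below all WT libraries.

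Receptor-like kinases with leucine-rich repeats had 21 of 149 members lower (14.1%) and none higher, with a median of -0.26. For 16 of the 21, WT replicate 3 was the highest library, and without it 9 were lower. ABC transporters had 8 of 93 lower (8.60%), 7 without WT replicate 3 and 5 without gir1-1 replicate 3, among them ABCG22, known for its part in stomatal water loss, at 307, 269 and 263 CPM in WT and 114, 186 and 122 in gir1-1. Peptide and nitrate transporters had 6 of 50 lower (12.0%), all with WT replicate 3 as the highest library, 4 without it and 3 without gir1-1 replicate 3. One of them is OPT3, a phloem iron transporter, which was at 199, 212 and 218 CPM in WT and 143, 145 and 122 in gir1-1. TIR-NBS-LRR resistance proteins had 7 of 74 lower (9.46%), 7 without WT replicate 3 and 9 without gir1-1 replicate 3. Transcription factor families on this side were homeobox and homeodomain-like factors with 15 of 149 (10.1%), bHLH factors with 9 of 84 (10.7%) and bZIP factors with 4 of 47 (8.51%). Without gir1-1 replicate 3 they had 8, 5 and 3 lower, and without WT replicate 3 they had 12, 7 and 5. Over all genes, 411 of the 798 lower genes had WT replicate 3 as their highest library and 301 of the 644 higher genes had gir1-1 replicate 3. The part of these 2 libraries in the family counts was not tested beyond leaving each out.

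Most large families lay near or under the background. Cytosolic ribosomal proteins had 4 of 385 higher and 1 lower, pentatricopeptide proteins 8 of 441 higher and 4 lower, and F-box proteins 8 of 298 higher and 6 lower. Of 52 histone genes none was higher and none lower at an unadjusted p-value under 0.05 by edgeR, and none was called in the authors' deposited table. WRKY factors had 1 of 46 higher and none lower, and cytochrome P450 genes had 7 of 136 higher and 5 lower.

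Jasmonate and salicylate are defence hormones, and jasmonate is a known inducer of glucosinolate genes. Of 26 tested genes of jasmonate synthesis and response, 3 (11.5%) were higher and none lower, with a median log2 fold change of 0.11 that turned negative without gir1-1 replicate 3, where 2 were higher and 2 lower. Without WT replicate 3 2 were higher. VSP2, a vegetative storage protein induced by jasmonate, was at 358, 864 and 950 CPM in WT and 1597, 2032 and 2458 in gir1-1, a log2 fold change of 1.49 (SE 0.39). Its neighbour VSP1 was at 647, 1840 and 1395 CPM in WT and 2504, 2823 and 3594 in gir1-1, a log2 fold change of 1.2 (SE 0.38). Both were higher in all gir1-1 libraries. The third, the synthesis gene AOC2, was at 4.06, 1.82 and 0.705 CPM in WT and 8.99, 0.671 and 38.2 in gir1-1, with the lowest and the highest library both in gir1-1. None of 13 tested signalling genes had an unadjusted p-value under 0.05 by edgeR, and MYC2, the central regulator, was listed at 0 in all 6 libraries.

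Salicylate genes differed by 1 library. The summed level of the 17 listed genes was 243, 132 and 125 CPM in WT and 141, 93.4 and 758 in gir1-1. Of 16 tested, 2 (12.5%) were higher and none lower, with a median log2 fold change of 1.34. Without gir1-1 replicate 3, none was higher, 2 were lower and the median was -0.48. PR1, the standard marker of salicylate signalling, was at 2.12, 0.972 and 0 CPM in WT and 0.792, 0 and 76.7 in gir1-1. PAD3, which makes the phytoalexin camalexin, was at 1.72, 0.668 and 0.411 CPM in WT and 0.622, 1.59 and 46.6 in gir1-1. In both genes the other gir1-1 libraries were no higher than the highest WT library.

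**Figure D5:**
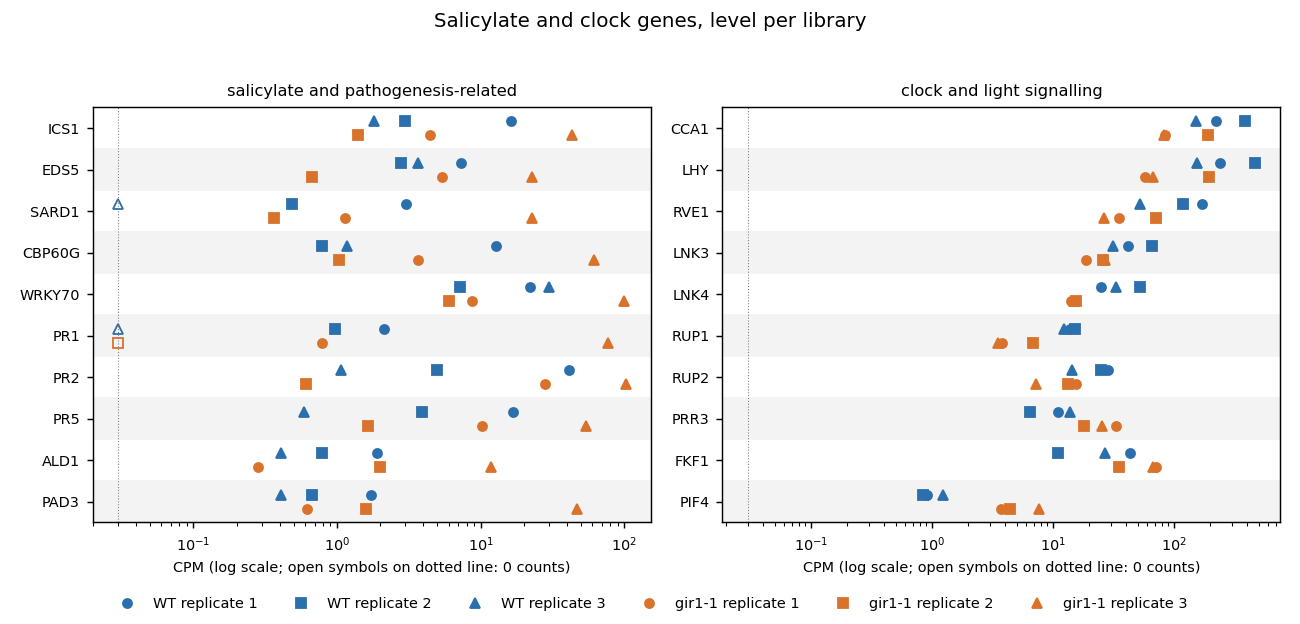
CPM per library, on a log axis, of salicylate and pathogenesis-related genes (left) and of clock and light signalling genes (right), with open symbols for 0 counts. On the left gir1-1 replicate 3 (orange triangles) is the highest library for every gene while the other gir1-1 libraries lie among, below or close to WT, and on the right PIF4 lies higher in all 3 gir1-1 libraries.

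Genes tied to GIR1 function were compared as lists. GIR2, the only paralog of GIR1 in the list of adaptors, was at 13.7, 6.32 and 5.23 CPM in WT and 29.9, 27.7 and 17.5 in gir1-1, higher in all libraries, with a log2 fold change of 1.57 (SE 0.39, adjusted p = 0.394 by edgeR), against 0.0295 for the adjusted p in the authors' deposited table. Of the 5 TOPLESS co-repressor genes none had an unadjusted p-value under 0.05 by edgeR. TPL itself was at 308, 280 and 226 CPM in WT and 175, 260 and 191 in gir1-1, a log2 fold change of -0.38 (SE 0.19). TPR1 to TPR4 ranged from -0.25 to 0.01, and the genotypes overlapped in TPL and in the 4 related genes.

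HD-ZIP IV genes had 1 of 9 tested members higher and 3 lower at an unadjusted p-value under 0.05, with a median of -0.22 that turned positive without WT replicate 1 and in a fit of the 6 libraries alone. WT replicate 3 was the highest library for the 3 lower genes, and without it none was lower and 1 was higher by edgeR, while without gir1-1 replicate 3 1 was lower and none higher. ATML1, which specifies the epidermis and promotes giant cells, was at 29.9, 32.6 and 51.2 CPM in WT and 24.0, 23.9 and 16.0 in gir1-1, a log2 fold change of -0.83 (SE 0.31, adjusted p = 0.607 by edgeR). HDG1 was at 41.4, 32.2 and 52.3 CPM in WT and 32.4, 25.7 and 25.2 in gir1-1, and HDG12 at 2.35, 2.25 and 3.64 CPM in WT and 1.41, 1.59 and 0.982 in gir1-1, with log2 fold changes of -0.60 and -1.05. GL2, the partner after which GIR1 is named, was at 0.687, 0.121 and 1.35 CPM in WT and 2.55, 1.95 and 1.62 in gir1-1, a log2 fold change of 1.49 (SE 0.67). GL2 was thus the member higher in gir1-1, at levels of few counts.

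The giant cell and endoreduplication list held 8 tested genes that promote the process (median -0.24) and 2 that oppose it (median -0.73). Of these 10 genes 1 was lower and none higher, with a median of -0.32, and by edgeR none was lower without gir1-1 replicate 3. That 1 was KRP2, an inhibitor of cyclin-dependent kinases, at 27.3, 23.0 and 21.8 CPM in WT and 19.5, 18.5 and 9.23 in gir1-1. LGO, the inhibitor that drives giant cell formation in the sepal, was at 15.5, 21 and 29.5 CPM in WT and 14.1, 22.9 and 17.5 in gir1-1, a log2 fold change of -0.28 (SE 0.29). Its genotypes overlapped. Of 13 mitosis and replication genes none had an unadjusted p-value under 0.05 by edgeR in either direction, and the median was -0.33. It was -0.61 for the 8 mitosis genes, all below 0, and -0.06 for the 5 replication genes. Cuticle and wax genes had 3 of 20 lower (15%) and none higher, with a median of -0.43. WT replicate 3 was the highest library for these 3, and by edgeR none was lower without it and 1 without gir1-1 replicate 3. CER4, a reductase that makes wax alcohols, was at 123, 204 and 227 CPM in WT and 156, 68.6 and 67.4 in gir1-1, so that gir1-1 replicate 1 lay within the range of WT.

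Within the FLOWERING LOCUS C clade, MAF5 was the only member of 5 tested with an unadjusted p-value under 0.05 by edgeR. MAF2 was at 54.1, 60.3 and 56.7 CPM in WT and 52.7, 57.5 and 56.0 in gir1-1, a log2 fold change of -0.04 (SE 0.12). MAF3 was at 19.0, 20.2 and 18.1 CPM in WT and 17.5, 21.5 and 20.7 in gir1-1, a log2 fold change of 0.06 (SE 0.15). FLM was at 48.1, 75.4 and 68.3 CPM in WT and 55.8, 68.4 and 60.6 in gir1-1, a log2 fold change of -0.05 (SE 0.18). The genotypes overlapped in all 3, although MAF2, MAF3 and MAF5 lie in one cluster on chromosome 5. MAF4, in the same cluster, had 0.566 to 1.29 CPM over the 6 libraries with a log2 fold change of -0.51 (SE 0.51), and FLC was at or near 0 in every library. Flavonoid and anthocyanin genes had none of 13 higher and 2 lower (15.4%), with a median of -0.64 that moved to -0.00 without WT replicate 2. Without gir1-1 replicate 3 1 was higher and none lower by edgeR, and none was higher or lower in a fit of the 6 libraries alone.

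Marker genes were read to see which cells the samples held. In bulk tissue, fewer cells of a type and less RNA per cell cannot be told apart. The 7 sepal and epidermis markers summed to 756, 765 and 968 CPM in WT and 837, 813 and 914 in gir1-1, and none of the 6 tested had an unadjusted p-value under 0.05 by edgeR. The 5 carpel and ovule markers together stayed between 4.3 and 6.8 CPM, and 4 of 10 tapetum and pollen markers (MS2, ATA7, A9 and MS1) were listed at 0 in all 6 libraries. The pollen tube gene VGD1 was at 32.9, 151 and 51 CPM in WT and 41.7, 162 and 55.8 in gir1-1, uneven among libraries in both genotypes alike. The phloem gene SUC2 was at 695, 700 and 665 CPM in WT and 747, 762 and 725 in gir1-1, a small difference without overlap.

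Nectary markers were lower in 3 of 4 cases. CRC, a YABBY factor of carpels and nectaries and one of the 10 lower genes with the smallest p-values, had 72 counts in WT and 2 in gir1-1, a ratio of 38.5 (95% interval 10.3 to 324, counting error only). CWINV4, a cell wall invertase needed for nectar, was at 8.07, 4.68 and 0.822 CPM in WT and 0, 0.305 and 0.246 in gir1-1. SWEET9, the nectar sugar exporter, was at 3.61, 0.547 and 0 CPM in WT and listed at 0 in all gir1-1 libraries. The fourth marker, JMT, was at 11.8, 24.9 and 11.4 CPM in WT and 18.9, 12.7 and 20.9 in gir1-1. Nectaries sit at the base of the stamens, outside the sepal, and the part of such tissue in the other results was not tested. Of 5 tested stomatal lineage genes 2 were lower and none higher, and 1 was lower without WT replicate 3, the highest library for both, or without gir1-1 replicate 3. FAMA, which sets guard cell identity, was at 73.3, 78.2 and 96.5 CPM in WT and 54.8, 65.6 and 45.8 in gir1-1, a log2 fold change of -0.58 (SE 0.18). MYB60, a guard cell factor, was at 14.5, 15.2 and 20.2 CPM in WT and 13.7, 12.5 and 9.57 in gir1-1. In both every gir1-1 library lay below every WT library.

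The share of genes that differed was then taken by position. On chromosomes 1 to 5, between 6.56% and 7.97% of tested genes had an unadjusted p-value under 0.05, against 20.3% in the plastid genome and 10.7% in the mitochondrial genome. Within 1 Mb of GIR1 on either side, 10 of 430 tested genes were higher and 18 lower (6.51% in all). Among genes called in the authors' deposited table there were 8 pairs of neighbours within 20 kb, and both genes of each pair differed in the same direction. They include MAM1 and MAM3 of aliphatic glucosinolate synthesis, 11145 bases apart, and APK2 and CYP79B2, 3437 bases apart. Others lie much closer, such as AT3G26440 and AT3G26460, 183 bases apart. AT3G28315 lies 112 bases from AT3G28310 and 343 bases from AT3G28320, so it is counted in each of these pairs. Of the words of AT3G28310, 46.2% occur elsewhere in the genome. Whether such close genes share reads was not tested. The number of neighbour pairs expected among all genes tested was not computed.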

How the data were processed

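RNA was measured by sequencing of sepals of WT, gir1-1 and atml1-3, with 3 libraries each. The deposited table holds raw counts per gene, per the file headers. Its other columns hold FPKM values, which the authors derived from these counts and which are not used here, and the authors' log2 fold changes with p-values and adjusted p-values per gene. The genome build is TAIR10, per the submitters' processing notes; the aligner, the counting tool and its strand setting are not given in the sources used here, so reads of overlapping genes cannot be told apart.

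Genes were tested with edgeR 4.0.16 in R 4.3.3 (glmQLFit and glmQLFTest) on the deposited counts, using TMM scaling and filterByExpr, over all 9 libraries with genotype as the only term. The 19174 genes kept hold at least 99.88% of the counts of each library, CPM were taken on TMM-scaled library sizes, the TMM factors were 0.933 to 1.045, the biological coefficient of variation was 0.3 and 6 residual degrees of freedom remained. A level of 3 counts, the limit of detection used for genes at 0, was 0.147 to 0.183 CPM in the 6 libraries. Intervals are 95% and, like this limit, cover counting error only.

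The genes, lists and families were chosen with earlier results of these data known. Named were GIR1, GIR2, ATML1, LGO, MYB28 and MYB29, every gene with an adjusted p-value under 0.05, and the 10 genes of smallest p-value in each direction whose counts averaged 10 or more and whose genotypes did not overlap. Also named were up to 5 members of a list and up to 4 of a family that stood above the background; members named beyond this were chosen after their values were seen. Lists and families are described by counts and medians, with no test. Of the 38299 genes in the table, 38286 were matched by ID to the RefSeq annotation of TAIR10.1, with equal start and end for 100% of them.

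The replicate numbers did not pair the libraries: the deviations of same-numbered WT and gir1-1 libraries from their genotype means correlated at 0.075, 0.121 and -0.077. Alternatives were DESeq2 1.42.0 size factors and its Wald test, total-count scaling, no filter, the 6 libraries alone, the replicate number as a block and the omission of each of the 6 libraries. The edgeR steps were tested on simulated data.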

Additional observations from a re-analysis of the deposited data

How the results depend on the processing

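The count of genes with an adjusted p-value under 0.05 (3 by edgeR) was also 3 with DESeq2 size factors, with total-count scaling and with the 6 libraries alone. It was 15 without the filter on low counts, 1 with the replicate block, 111 by DESeq2's Wald test and 111 by the authors' deposited adjusted p-values, an alternative added after the data were seen. Over 24408 genes, the p-values of the Wald test differed from those of the authors' deposited table by at most 1.3e-05. Leaving out one library at a time gave 0 to 6 genes by edgeR. It was 1 without WT replicate 1, 6 without WT replicate 2 and 0 without gir1-1 replicate 1, where 850 genes were higher and 862 lower at an unadjusted p-value under 0.05. Over these omissions the unadjusted counts ran from 379 to 850 for higher genes, the lowest without gir1-1 replicate 3, and from 584 to 938 for lower genes. Total-count scaling turned the split from 644 higher and 798 lower to 742 and 657. It moved the median log2 fold change of all genes from 0.005 to 0.039.

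With the replicate block MAF5 kept its call (adjusted p = 0.0379 by edgeR), while MLP43 and AT5G17700 lost theirs (adjusted p = 0.0589 by edgeR). Under the block 9 of 215 named genes changed sign, against 33 without gir1-1 replicate 3 and 22 without WT replicate 3. DESeq2's Wald test called 31 named genes that edgeR did not, and the fit without a filter 9. The medians of aliphatic (1.85 to 3.46) and indolic (0.75 to 1.25) glucosinolate synthesis kept their sign under all 12 alternatives. So did those of cuticle genes (-0.61 to -0.28), mitosis and replication genes together (-0.51 to -0.23) and nectary markers (-6.23 to -4.28). The medians of the salicylate and jasmonate lists changed sign without gir1-1 replicate 3. The cause of these shifts was not tested. With 3 libraries a genotype, differences within the spread between replicates were not detectable.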

Other observations

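Genes of the circadian clock and of light signalling were gathered after their values were seen, and their counts are a description. Of 26 tested, 3 were higher and 9 lower in gir1-1 at an unadjusted p-value under 0.05 by edgeR. Without WT replicate 3 the counts were 2 and 9, and without gir1-1 replicate 3 they were 2 and 4. The morning factor LHY was at 239, 468 and 155 CPM in WT and 58.1, 195 and 66.8 in gir1-1, a log2 fold change of -1.43, and its partner CCA1 was at 223, 383 and 151 CPM in WT and 84.8, 192 and 82.8 in gir1-1, a log2 fold change of -1.07 (SE 0.39). In both, gir1-1 replicate 2 overlapped WT. The repressor RUP1 of ultraviolet light signalling was at 13.8, 15.1 and 12.4 CPM in WT and 3.79, 6.89 and 3.49 in gir1-1, and LNK4, a clock cofactor, at 25.1, 52.2 and 33.1 CPM in WT and 14, 15.6 and 14.8 in gir1-1. Both were lower in every gir1-1 library. On the higher side, the growth regulator PIF4 was at 0.916, 0.850 and 1.23 CPM in WT and 3.73, 4.39 and 7.61 in gir1-1, a log2 fold change of 2.38 (SE 0.46). The evening gene PRR3 was at 11, 6.50 and 13.7 CPM in WT and 32.9, 17.9 and 25.4 in gir1-1, a log2 fold change of 1.28. The labels give no hour of collection, and its part in these values was not tested.

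Genes of endoplasmic reticulum bodies, stores of beta-glucosidase, were likewise gathered after their values were seen, and 2 of 5 tested were higher. NAI1, the bHLH factor needed for these bodies, was at 0.515, 1.09 and 1.17 CPM in WT and 7.52, 4.57 and 8.94 in gir1-1, a log2 fold change of 2.91, and its adjusted p-value was 1.56e-06 in the authors' deposited table. The other was AT3G16420 (PBP1). The beta-glucosidase gene BGLU18 had a log2 fold change of 0.16. Of the 9 listed genes, PYK10, NAI2, BGLU21 and BGLU22 had 0 to 6 counts in each library of both genotypes and were not tested.

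Families of wall proteins were also formed by protein domain, after their values were seen. EXORDIUM-like genes had 4 of 7 lower, 2 without WT replicate 3 and 1 without gir1-1 replicate 3. Multicopper oxidases had 7 of 22 lower, 3 and 4 under the same omissions, and neprosin-domain proteins 5 of 10, 3 and 4. Fasciclin-domain proteins had 6 of 13 lower, 4 and 6 under these omissions. PHI-1, of the EXORDIUM family, was at 62.5, 31.3 and 149 CPM in WT and 15.6, 3.35 and 12.3 in gir1-1, with no overlap.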
